A study of Homo sapiens with 4 samples.

Results

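The Krüppel-like factors KLF2 to KLF11 were followed in the human embryonic stem cell line H9 at day 7 of a culture described as non-neural ectoderm, the early ectoderm outside the neural plate. The 10 members are the rows of the deposited gene count table, out of 25690, whose symbol equals KLF2 to KLF11, and all 10 were found. PolyA-selected RNA was sequenced in 2 libraries whose genotype label is TFAP2A knockout and in 2 wild-type (WT) libraries, all at day 7. TFAP2A encodes AP-2 alpha, a transcription factor of the ectoderm and neural crest. The labels name no guide, clone or growth protocol, so whether the knockout is a single clone is not known. Separate cultures are not stated for libraries of the same genotype, so p-values cover only the spread among these samples, and that spread may be technical.

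KLF proteins bind GC-rich and CACCC sequences in promoters through zinc fingers at the C-terminal end, and their N-terminal parts differ and recruit either activators or repressors. KLF2, KLF4, KLF5, KLF6 and KLF7 act mainly as activators, KLF3 and KLF8 recruit the corepressor CTBP, and KLF9, KLF10 and KLF11 recruit the corepressor SIN3A. In skin, KLF4 is known for building the barrier of the differentiated epidermis and KLF5 for its role in the dividing basal cells. KLF2, KLF4 and KLF5 are also known from the self-renewal of mouse embryonic stem cells.

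Libraries held 19305868 and 21797850 counts in those labelled knockout, and 17945210 and 17838204 counts in WT. TFAP2A RNA itself was still present, at 133 and 121 CPM (deposited counts scaled to library size) in the libraries labelled knockout, against 171 and 198 CPM in WT. The sample titles of these libraries name TFAP2C rather than TFAP2A, and TFAP2C was at 8.89 and 5.77 CPM, against 27.5 and 30.6 CPM in WT. TFAP2B, which no label names, was at 45.7 and 40.5 CPM, against 261 and 287 CPM in WT, and TFAP2E was lower too (6.49 ± 0.748 against 11.5 ± 0.173 CPM). A total per gene cannot tell which part of TFAP2A was read, so the genotype is called by its label throughout. Markers of the non-neural ectoderm were present in every library, with 8 of 14 lower, 0 higher and a summed level of 2216 and 2129 CPM in the libraries labelled knockout, against 2942 and 3202 CPM in WT. Of 6 neural markers tested, 5 were higher and 1 lower. SOX1, among the higher, had enough counts to be tested only through the libraries labelled knockout. Of 6 amnion and trophoblast markers tested, 5 were lower and 1 higher. The summed level of all 7 listed was 189.8 and 143 CPM in the libraries labelled knockout, against 1800.1 and 1922 CPM in WT. CGA and CYP19A1, both lower, had enough counts to be tested only through the WT libraries. ELF5 was too low to test, with a mean above that of WT (0.24 against 0.0425 CPM). Mesenchyme markers were lower for 5 of 8 and higher for 1, neural crest markers lower for 2 of 3, and pluripotency markers lower for 1 of 3. By the same test, given below, 44.2% of all genes tested were called, 22.3% lower and 21.9% higher. In bulk RNA, fewer cells of a type and less RNA per cell cannot be told apart, and the part that such markers had in the KLF values was not tested.

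Of the 10 KLF genes, 9 had enough counts to test. KLF4, KLF6, KLF8, KLF5 and KLF11 fell and KLF10 and KLF9 rose in the libraries labelled knockout, while KLF3 and KLF7 did not pass (edgeR's quasi-likelihood test, Benjamini-Hochberg adjustment over 15643 genes, threshold 0.05). The same test called 44.2% of all genes tested, 22.3% lower and 21.9% higher, so a call is common in this comparison. The counts of calls in the gene lists are to be read beside these shares. The genotypes did not overlap for all 9 KLF genes tested, as for 73.1% of all genes tested. The calls of KLF4, KLF6, KLF8 and KLF10 held under all of the alternative settings and with each library left out in turn. The calls of KLF5, KLF9 and KLF11 did not, and are given below with the libraries on which they rest.

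**Figure D1:**
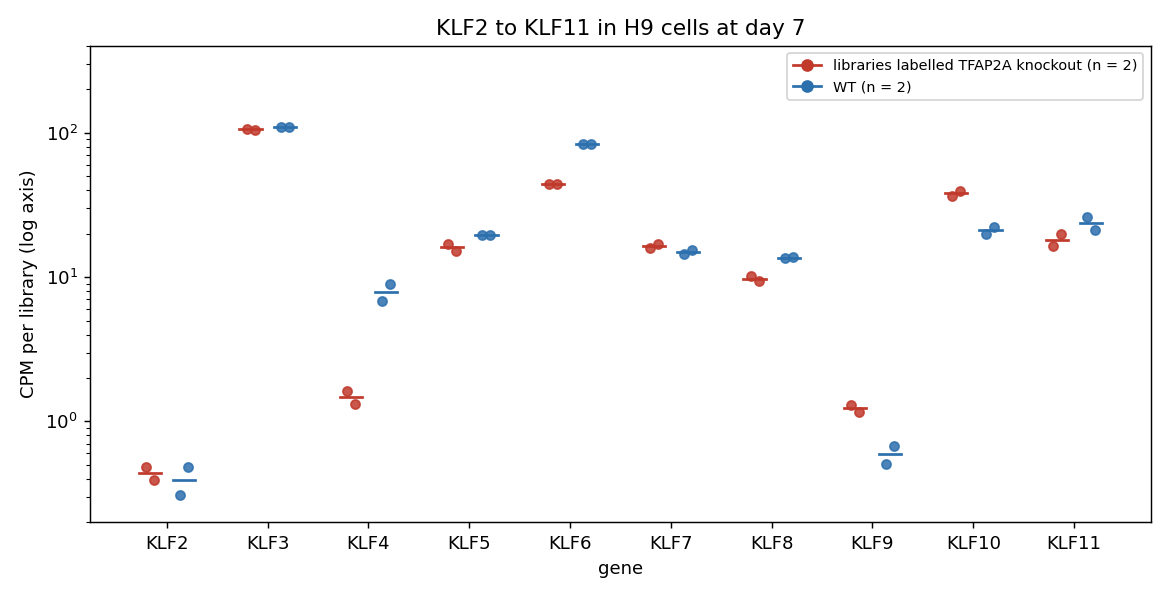
Level of each KLF gene in every library, in CPM on a log axis, with points for libraries and a line for the mean of each genotype (n = 2). KLF4 lies at 1.61 and 1.33 CPM in the libraries labelled knockout against 6.88 and 8.96 CPM in WT, and KLF3 is the highest in both genotypes.

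Per length, KLF3 was the most abundant member in both genotypes and KLF2 and KLF9 the least abundant. Levels per length are CPM divided by the kilobases of the longest GENCODE transcript, given as mean ± SD over 2 libraries. In the libraries labelled knockout the order was KLF3 (20.7 ± 0.346), KLF10 (10.4 ± 0.48), KLF6 (9.49 ± 0.017), KLF11 (4.51 ± 0.592) and KLF5 (4.51 ± 0.32), KLF7 (1.97 ± 0.0849), KLF8 (1.08 ± 0.0622), KLF4 (0.523 ± 0.0714), KLF9 (0.239 ± 0.0188) and KLF2 (0.217 ± 0.034). In WT it was KLF3 (21.4 ± 0.194), KLF6 (18.0 ± 0.131), KLF11 (5.83 ± 0.871), KLF10 (5.75 ± 0.416), KLF5 (5.51 ± 0.0263), KLF4 (2.82 ± 0.523), KLF7 (1.78 ± 0.089), KLF8 (1.52 ± 0.0261), KLF2 (0.196 ± 0.0611) and KLF9 (0.114 ± 0.0242). The neighbours KLF11 and KLF5, and KLF9 and KLF2, overlapped between libraries in the libraries labelled knockout, and KLF11, KLF10 and KLF5 did in WT. KLF4 thus stood above KLF7 and KLF8 in WT and below both in the libraries labelled knockout. That crossing depended on the length used, since with the median length of the protein-coding transcripts KLF7 and KLF8 stood above KLF4 in WT as well (11.8 and 8.84 against 5.70 CPM per kilobase).

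The members' summed level was 251 and 252 CPM in the libraries labelled knockout, against 296 and 294 CPM in WT. KLF6 differed most in absolute terms, by -39.6 CPM (44.2 against 83.8 CPM in WT), and KLF10 by 16.9 CPM (38.0 against 21.04 CPM in WT), both differences being knockout minus WT. As shares of the summed level per length, KLF6 made up 17.7% ± 0.126 in the libraries labelled knockout, against 28.6% ± 0.194 in WT, and KLF10 made up 19.4% ± 0.792, against 9.14% ± 0.665. KLF3 made up 38.6% ± 0.852, against 34.0% ± 0.292 in WT, although its own level did not pass the test. The ratio of KLF10 to KLF6 per length, which does not depend on library scaling, was 1.06 and 1.13 in the libraries labelled knockout, against 0.302 and 0.337 in WT. With the median protein-coding length the shares moved, to 11.4% against 18.6% in WT for KLF6, 13.2% against 6.28% for KLF10 and 15.2% against 11.9% for KLF7.

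**Figure D2:**
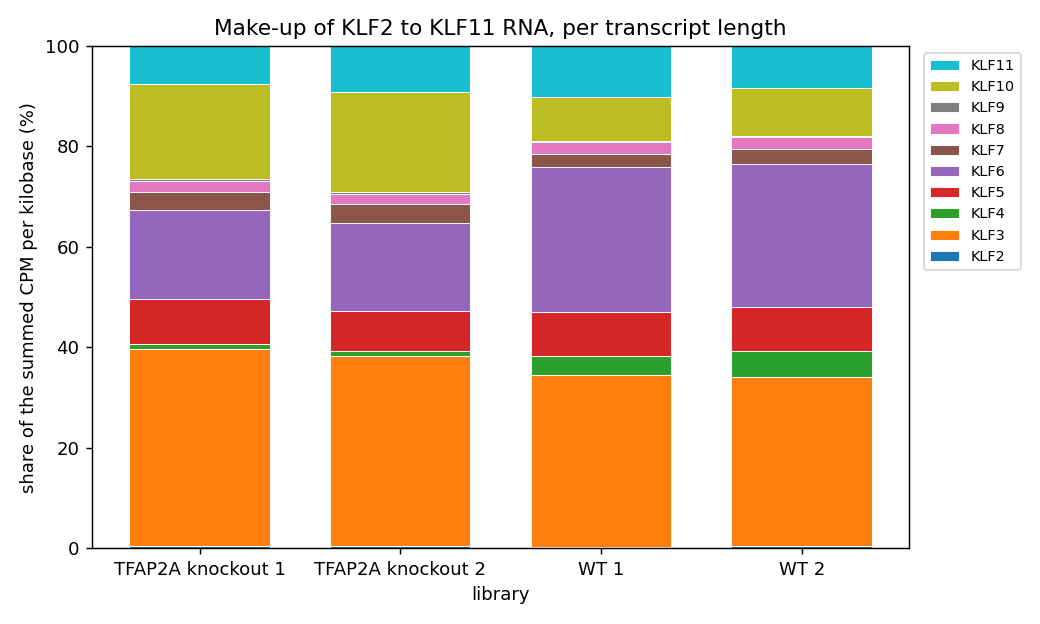
Share of each KLF gene in the summed CPM per kilobase of KLF2 to KLF11, one stacked bar per library. KLF6 takes 17.7% on average in the libraries labelled knockout and 28.6% in WT, and KLF10 takes 19.4% and 9.14%.

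KLF4 (chromosome 9, 110247133 to 110252047, minus strand, hg19), a zinc finger factor of the differentiating epidermis and of cell reprogramming, showed the largest change of the family. It had 31.5 and 29 counts in the libraries labelled knockout, against 123 and 158 counts in WT, which is 1.61 and 1.33 CPM against 6.88 and 8.96 CPM. Both libraries labelled knockout lay far below both WT libraries. The mean was 5.38-fold lower (log2 fold change -2.42, SE 0.22, 95% interval -2.89 to -1.94, adjusted p = 6.6e-07, edgeR). Among all genes tested its level per length stood at the 11.01 percentile in the libraries labelled knockout and at the 30.4 percentile in WT. These percentiles use the longest transcript of each gene, and were not computed with the median protein-coding length.

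The promoters of the members that fell under every setting are shown because the labelled gene encodes an AP-2 factor, whose consensus GCCNNNGGC can be searched in them. Each is the 250 bases before the start given by RefSeq (GRCh38.p14), 5′ to 3′ on the gene's strand, with matches to GCCNNNGGC in capitals. The motif reads the same on both strands. KLF8 has 4 starts in RefSeq, and the start shown was chosen because its promoter held matches.
KLF4, chr9:107489770-107490019, minus strand: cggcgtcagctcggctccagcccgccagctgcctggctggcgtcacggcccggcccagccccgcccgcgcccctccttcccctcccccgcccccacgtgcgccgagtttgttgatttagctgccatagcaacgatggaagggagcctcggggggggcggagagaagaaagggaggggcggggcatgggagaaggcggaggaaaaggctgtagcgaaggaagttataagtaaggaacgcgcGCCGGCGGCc
KLF6, chr10:3785210-3785459, minus strand: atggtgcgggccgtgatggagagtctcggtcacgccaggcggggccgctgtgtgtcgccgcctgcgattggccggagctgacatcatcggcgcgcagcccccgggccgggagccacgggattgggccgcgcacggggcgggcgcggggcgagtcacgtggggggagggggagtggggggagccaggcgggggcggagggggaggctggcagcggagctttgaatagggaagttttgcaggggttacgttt
KLF8, chrX:56232106-56232355, plus strand: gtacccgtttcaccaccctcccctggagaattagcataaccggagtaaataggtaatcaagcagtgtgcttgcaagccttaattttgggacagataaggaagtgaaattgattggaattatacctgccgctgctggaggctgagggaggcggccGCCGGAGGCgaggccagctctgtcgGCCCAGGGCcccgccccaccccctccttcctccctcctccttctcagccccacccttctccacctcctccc
The KLF4 promoter held 1 match, which begins 10 bases before the start, and the KLF8 promoter held 2, which begin 96 and 71 bases before it. KLF6 held none in this window. In all, 8 of the 10 KLF genes matched a RefSeq entry, with 16 promoters, and 2 of these 16 held the motif, against 19.8% of all 35116 RefSeq promoters of the same length. The CACCC box, the letters CACCC on either strand, was in 8 of the 16, against 54.7% of all promoters. A match is a stretch of letters and was not tested for binding.

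KLF5 (chromosome 13, 73632930 to 73651680, plus strand, hg19), the factor of dividing epithelial cells, differed far less. It was at 16.9 and 15.3 CPM in the libraries labelled knockout, against 19.6 and 19.7 CPM in WT. The genotypes did not overlap, and the libraries labelled knockout lay further apart than those of WT. KLF5 passed narrowly (log2 fold change -0.29, SE 0.10, adjusted p = 0.0357, edgeR). The call was lost without knockout replicate 2 (adjusted p = 0.194), without WT replicate 1 (0.11) or 2 (0.117), with DESeq2 (0.176) and when the GC trend was removed (0.0645). The ratio of KLF4 to KLF5 per length was 0.121 and 0.11 in the libraries labelled knockout, against 0.446 and 0.576 in WT. The size of this ratio depended on the length used. With the median protein-coding length KLF4 and KLF5 stood at 1.06 and 4.94 CPM per kilobase, against 5.70 and 6.03 in WT.

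KLF2 (chromosome 19, 16435651 to 16438339, plus strand, hg19), the flow-responsive factor of endothelial cells, was at the edge of detection in both genotypes. It had 9.5 and 8.5 counts in the libraries labelled knockout, against 5.5 and 8.5 counts in WT, and the genotypes overlapped. It did not reach the filter on low counts, about 0.537 CPM in at least 2 libraries. Fitted without that filter its log2 fold change was 0.14 with a 95% interval of -1.08 to 1.37 (adjusted p = 0.888, edgeR), so a change of either sign up to about that size was not detectable at this depth.

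KLF6 (chromosome 10, 3818188 to 3827473, minus strand, hg19), a widely expressed factor that responds to injury and growth signals, fell. It was at 44.2 and 44.1 CPM in the libraries labelled knockout, against 84.2 and 83.4 CPM in WT. Replicates of a genotype differed by less than 1 CPM, and the genotypes stood wide apart. The mean was 1.9-fold lower (log2 fold change -0.92, SE 0.06, 95% interval -1.06 to -0.79, adjusted p = 2.8e-08, edgeR). KLF7 (chromosome 2, 207938862 to 208030740, minus strand, hg19), its closest relative in the family and a factor of neurons, was at 15.95 and 16.96 CPM, against 14.4 and 15.5 CPM in WT. KLF7 did not pass (log2 fold change 0.14, 95% interval -0.09 to 0.38, adjusted p = 0.31), and an interval of this width leaves room for a small difference of either sign.

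KLF3 and KLF8 both recruit CTBP, and their levels differed in what passed. KLF3 (chromosome 4, 38665790 to 38703129, plus strand, hg19) was at 107 and 105 CPM in the libraries labelled knockout, against 110.2 and 109 CPM in WT. It did not pass (log2 fold change -0.05, 95% interval -0.17 to 0.07, adjusted p = 0.488, edgeR), and this interval was the narrowest of the family. KLF3-AS1 overlaps KLF3 by 460 bases on the opposite strand, and the sources do not state whether counting used strand, so KLF3 and KLF3-AS1 reads there cannot be told apart. KLF8 (chromosome X, 56258822 to 56314322, plus strand, hg19) was at 10.1 and 9.33 CPM in the libraries labelled knockout, against 13.5 and 13.8 CPM in WT. All KLF8 values of the libraries labelled knockout lay below those of WT, 1.4-fold lower in the mean (log2 fold change -0.49, SE 0.13, adjusted p = 0.00579, edgeR). Its highest adjusted p over the alternative settings was 0.0429. The CTBP genes themselves did not pass, although CTBP1 was called higher with the GC trend removed (adjusted p = 0.00113), with CTBP1 at 232 ± 6.71 against 220.4 ± 0.815 CPM in WT and CTBP2 at 115 ± 2.57 against 123 ± 2.37 CPM (SD, n = 2 each).

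KLF10 (chromosome 8, 103661005 to 103668130, minus strand, hg19), first described as an early gene of the TGF-beta response, rose. It was at 36.7 and 39.2 CPM in the libraries labelled knockout, against 20.0 and 22.1 CPM in WT. The genotypes were well separated and the mean was 1.81-fold higher (log2 fold change 0.85, SE 0.09, 95% interval 0.67 to 1.04, adjusted p = 1.9e-06, edgeR). KLF11 (chromosome 2, 10183682 to 10194963, plus strand, hg19), its paralogue and another TGF-beta responsive repressor, was lower instead, at 16.5 and 19.9 CPM against 26.0 and 21.04 CPM in WT. The genotypes did not overlap, but their nearest libraries lay closer together than the replicates of either genotype. KLF11 passed (log2 fold change -0.37, SE 0.12, adjusted p = 0.0289, edgeR), but not without knockout replicate 1 (adjusted p = 0.197), without WT replicate 1 (0.287), with DESeq2 (0.079) or with the GC trend removed (0.0502). The ratio of KLF10 to KLF11 per length was 2.45 and 2.17 in the libraries labelled knockout, against 0.846 and 1.16 in WT. Its size also depended on the length used. With the median protein-coding length KLF10 and KLF11 stood at 11.2 and 8.02 CPM per kilobase, against 6.23 and 10.4 in WT.

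KLF9 (chromosome 9, 72999513 to 73029573, minus strand, hg19), which glucocorticoid and thyroid hormone receptors induce directly, was low in all libraries. It had 25.5 counts in each library labelled knockout, against 9 and 12 counts in WT, or 1.31 and 1.17 CPM against 0.503 and 0.68 CPM. All libraries labelled knockout were above all WT libraries, with a log2 fold change of 1.08 (SE 0.38, 95% interval 0.28 to 1.89, adjusted p = 0.0302, edgeR). Both libraries labelled knockout and 1 WT library reached the filter on low counts. The call was lost when any library was left out, which gave an adjusted p of 0.144 for knockout replicate 1, 0.0923 for knockout replicate 2, 0.187 for WT replicate 1 and 0.0663 for WT replicate 2. It was lost with DESeq2 too (0.239).

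**Figure D3:**
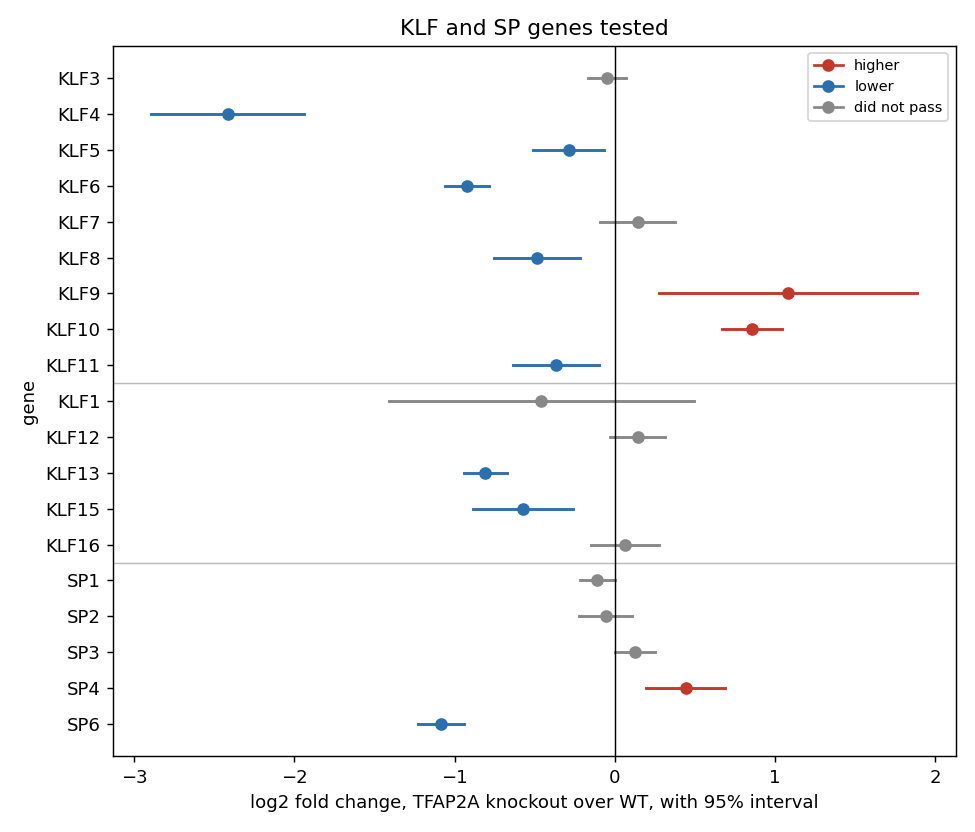
Log2 fold change of each tested KLF and SP gene, libraries labelled TFAP2A knockout over WT, with its 95% interval from the edgeR fit (n = 2 per genotype). SP5 is left out because it had 1 count in the libraries labelled knockout. KLF4 lies lowest at -2.42 and the intervals of KLF3 and KLF7 include 0.

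**Figure D4:**
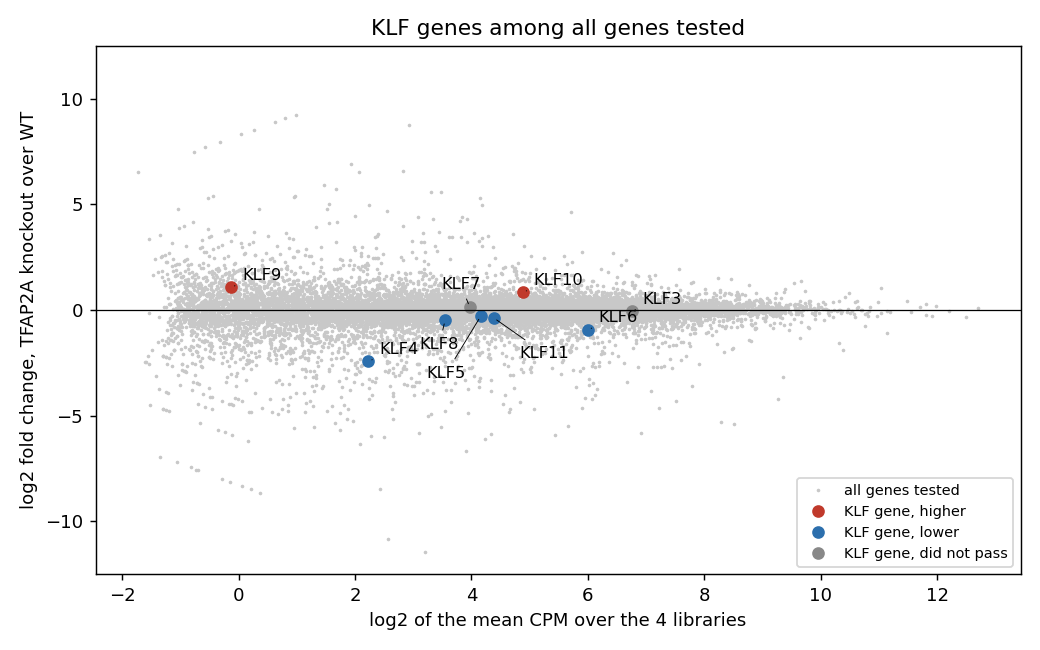
Log2 fold change against mean level for the 15643 genes tested, with the KLF genes marked by their call. KLF4 lies at -2.42, KLF6 at -0.92, KLF10 at 0.85 and KLF9 at 1.08, and KLF3, KLF5, KLF7, KLF8 and KLF11 lie within 0.5 of 0 on the log2 scale.

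Of the other 8 KLF genes, 7 were in the table and 5 could be tested, of which 2 fell and 0 rose. Their median log2 fold change was -0.46, against 0.00 over all genes tested, of which 44.2% were called. That median is the value of KLF1 alone (SE 0.44, adjusted p = 0.431, edgeR), which had 8 to 14 counts per library. The median therefore does not show a shared fall of these genes. KLF13, another SIN3A-binding repressor, was at 61.02 and 64.6 CPM in the libraries labelled knockout, against 107 and 114 CPM in WT (log2 fold change -0.81, SE 0.06, adjusted p = 1.02e-07, edgeR). KLF13 thus lay below WT in both libraries, as KLF11 did and KLF10 did not. KLF15, a factor of glucocorticoid and metabolic responses, was at 8.66 and 10.7 CPM, against 15.9 and 13.0 CPM in WT (adjusted p = 0.00542, edgeR), a call lost without knockout replicate 1 (0.0595) or WT replicate 1 (0.0851). KLF12, the CTBP-binding neighbour of KLF5 on chromosome 13, was at 58.0 and 52.3 CPM against 46.7 and 53.3 CPM in WT, and the genotypes overlapped. KLF16 did not pass (33.4 ± 3.16 against 32.04 ± 3.89 CPM), but was called higher with the GC trend removed (adjusted p = 0.0192). KLF1, the erythroid factor, was at 0.514 ± 0.148 against 0.732 ± 0.0868 CPM in WT and did not pass. KLF14 was at 0 and 0.0458 CPM against 0.0839 and 0 CPM in WT, too low to test, and KLF17, a factor of the early human embryo, was at 0 counts throughout, a limit of 0.138 to 0.168 CPM depending on the library (3 counts).

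SP factors share the zinc fingers of KLF proteins. Of 9, 6 could be tested, and 2 fell and 1 rose, where 44.2% of all genes tested were called. SP6, known from teeth, skin and limb buds, was at 72.5 and 71.6 CPM in the libraries labelled knockout, against 143 and 163 CPM in WT (log2 fold change -1.09, SE 0.07, adjusted p = 8.88e-09, edgeR). SP5, a WNT target, had 1 count over both libraries labelled knockout, against 28 in WT, a ratio WT over knockout of 32.6 (95% exact Clopper-Pearson counting interval 5.39 to 1333, counting error only). It reached the filter on low counts only in WT, and was too low to test without WT replicate 2. SP4 was at 26.4 and 21.1 CPM against 17.6 and 17.3 CPM in WT (adjusted p = 0.00615, edgeR), a call lost without knockout replicate 1 (0.0887). SP1, SP2 and SP3 did not pass, with SP1 at 199 ± 1.67 against 214 ± 7.63 CPM, SP2 at 31.1 ± 0.261 against 32.4 ± 0.518 CPM and SP3 at 109 ± 3.6 against 99.5 ± 3.38 CPM. SP7 and SP8 had 0 counts in all 4 libraries and SP9 had 1 count in a library labelled knockout.

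Glucocorticoid and thyroid hormone receptor genes were listed with other genes that respond to these hormones as KLF9 does. Of 8 tested, 5 rose, 1 fell and 2 did not pass (median log2 fold change 0.57), where 21.9% of all genes tested were called higher. Of the receptor genes, only NR3C1 rose. ZBTB16, a zinc finger gene induced by glucocorticoids, was at 9.86 and 9.37 CPM in the libraries labelled knockout, against 1.59 and 1.47 CPM in WT (log2 fold change 2.65, SE 0.19, adjusted p = 4.98e-08, edgeR). FKBP5, a chaperone of the glucocorticoid receptor, was at 45.5 and 49.2 CPM against 15.7 and 16.05 CPM, and the receptor gene NR3C1 at 19.9 and 19.6 CPM against 9.42 and 9.78 CPM. For each of these 3 genes the genotypes were separated by more than the spread between replicates. SGK1 rose too (12.9 ± 3.49 against 6.95 ± 0.449 CPM), and PER1 passed at 37.8 ± 0.949 against 31.7 ± 1.59 CPM. The call of PER1 was lost with DESeq2 (adjusted p = 0.105). It was also lost without knockout replicate 2 (log2 fold change 0.23) or WT replicate 1 (0.20). THRB, a thyroid hormone receptor gene, fell to 0.691 and 0.321 CPM, against 2.60 and 2.64 CPM in WT. The genes SGK1, PER1 and THRB were named after their values were seen.

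Among 11 tested genes of the early TGF-beta response, with KLF10 and KLF11 left out, 3 rose, 1 fell and 7 did not pass (median log2 fold change 0.15). SKIL, a feedback inhibitor of SMAD signalling, was at 98.5 and 82.7 CPM in the libraries labelled knockout, against 47.2 and 53.05 CPM in WT (log2 fold change 0.85, SE 0.09, adjusted p = 2.06e-05, edgeR). PMEPA1, another feedback inhibitor, was at 13.4 and 17.3 CPM against 8.61 and 7.2 CPM. CTGF, which encodes a matricellular protein, was at 11.7 and 8.98 CPM against 6.57 and 6.69 CPM, a call lost without knockout replicate 1 (adjusted p = 0.0681, edgeR). SMAD7, the inhibitory SMAD, did not pass at 56.7 ± 0.397 against 51.01 ± 0.533 CPM, but was called higher with the GC trend removed (adjusted p = 0.000898, edgeR). BAMBI, a decoy receptor named after its values were seen, fell to 128 ± 6.68, against 179 ± 10.9 CPM in WT. With the GC trend removed, 7 of the 11 were called higher and 2 lower.

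Immediate early genes, the class to which KLF4, KLF6 and KLF10 belong in stimulated cells, did not move one way. Of 17 tested, 3 rose, 4 fell and 10 did not pass (median log2 fold change 0.03). BTG2, an antiproliferative gene, was at 39.9 and 40.3 CPM in the libraries labelled knockout, against 93.2 and 96.7 CPM in WT (adjusted p = 1.48e-09, edgeR). CYR61, a matricellular gene, rose to 20.7 and 21.1 CPM, against 14.5 and 12.3 CPM in WT. ATF3 was at 7.73 ± 0.0764 against 5.39 ± 0.365 CPM, but ATF3 did not pass when WT replicate 2 was left out (adjusted p = 0.0966, edgeR) or with DESeq2 (0.111). JUN did not pass (193.8 ± 43.7 against 159.8 ± 12.2 CPM), but was called higher without knockout replicate 1 (adjusted p = 0.000146). Each library left out moved the number that fell, to 2 without knockout replicate 1, 1 without knockout replicate 2, 2 without WT replicate 1 and 2 without WT replicate 2. The number that rose was 1 without WT replicate 2. With DESeq2 1 rose and 1 fell, and with the GC trend removed 6 rose and 2 fell.

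The ERK5 and MEF2 branch, which drives KLF2 and KLF4 in endothelial cells, had 8 genes tested, of which 2 rose, 1 fell and 5 did not pass (median log2 fold change -0.03). PIEZO1, a stretch-activated channel gene, was at 78.6 and 79.4 CPM in the libraries labelled knockout, against 134 and 141 CPM in WT. MEF2C was at 9.06 and 9.21 CPM against 5.28 and 3.998 CPM, an adjusted p of 0.000298 (edgeR). MAP3K2 was at 41.2 ± 2.89 against 34.2 ± 1.75 CPM. MAP3K2 did not pass when knockout replicate 1 (adjusted p = 0.105, edgeR) or WT replicate 2 (0.124) was left out, with DESeq2 (0.0789) and with the GC trend removed (0.424). The kinase gene MAPK7, which encodes ERK5, overlapped between genotypes at 40.9 ± 0.62 against 42.06 ± 1.38 CPM.

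Of 16 cofactor genes tested, 3 rose, 3 fell and 10 did not pass (median log2 fold change -0.05), where 44.2% of all genes tested were called. HDAC2 was at 286 ± 8.94 CPM against 219 ± 1.78 CPM in WT. SIN3A, which KLF9, KLF10 and KLF11 recruit, rose to 181 ± 2.94 CPM, against 156 ± 3.42 CPM in WT (log2 fold change 0.22, adjusted p = 0.00309, edgeR). Its paralogue SIN3B fell to 85.9 ± 5.27, against 107 ± 1.02 CPM. Without WT replicate 2 the number that fell was 1, and with the GC trend removed the number that rose was 5. Of 7 genes of ubiquitin ligases that act on KLF proteins, 2 fell and 0 rose (median log2 fold change -0.07). FBXO32 was at 6.38 and 5.22 CPM against 16.5 and 15.3 CPM (log2 fold change -1.46, SE 0.14, adjusted p = 1.22e-06, edgeR), and WWP1, a ligase of KLF2 and KLF5, at 35.4 ± 2.98 against 46 ± 4.64 CPM. WWP1 did not pass when WT replicate 1 was left out (adjusted p = 0.06, edgeR).

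Known targets of KLF4 and KLF5 in epithelia and in the cell cycle changed in both directions. Of 12 listed, 7 could be tested, 4 fell and 3 rose (median log2 fold change -0.67). CCND1, the cyclin D1 gene that KLF5 activates and KLF4 represses, rose to 104 and 105 CPM, against 15.3 and 15.8 CPM in WT (log2 fold change 2.74, SE 0.07, adjusted p = 1.73e-12, edgeR). PDGFA fell to 17.1 and 15.03 CPM, against 36.4 and 35.2 CPM in WT, and CDH1, the epithelial cadherin gene, to 247 and 219.96 CPM, against 394 and 453 CPM. The late epidermal genes IVL, SPRR1A and SPRR2A had 0 counts in all 4 libraries. Of 6 tested endothelial targets of KLF2 and KLF4, 4 fell and 0 rose (median log2 fold change -1.73). This list was not split into genes that KLF2 and KLF4 activate and genes they repress. VCAM1 was at 1.95 and 1.79 CPM against 14.5 and 11.3 CPM in WT, and S1PR1 at 1.89 and 1.74 CPM against 7.86 and 6.49 CPM. THBD (0.22 against 0.62 CPM) and EDN1 (0.193 against 0.844 CPM) also fell. Both reached the filter on low counts only in WT, and neither was called with DESeq2. NOS3, the endothelial nitric oxide synthase gene, did not pass, with 5.76 and 4.24 CPM against 4.42 and 3.35 CPM in WT. The number that fell was 2 without knockout replicate 2 or without WT replicate 1, and 2 with DESeq2.

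Of 9 endothelial markers, 3 could be tested. CDH5 and KDR fell, and FLI1 did not pass (0.675 against 0.927 CPM in WT). TIE1 (0.415 against 0.0988 CPM), CLDN5 (0.318 against 0.197 CPM), ESAM (0.274 against 0.17 CPM) and EMCN (0.125 against 0.0284 CPM) were too low to test, with means above those of WT, and ERG was at 0.133 against 0.603 CPM. The 9 markers together, mostly CDH5 and KDR in WT, were at 4.46 and 4.90 CPM in the libraries labelled knockout, against 30.0 and 30.8 CPM in WT, PECAM1 had 0 counts in all 4 libraries, and the part of these markers in the KLF4 value was not tested. Of 9 blood markers, 2 could be tested and both fell, with a summed level of 2.66 and 2.82 CPM against 17.9 and 19.25 CPM. RUNX1, among these, reached the filter on low counts only in WT (0.249 against 4.10 CPM). Of 12 pluripotency partners of KLF2, KLF4 and KLF5, 7 could be tested, 2 rose, 1 fell and 4 did not pass (median log2 fold change 0.03). ESRRB, named after its values were seen, was at 2.36 and 1.81 CPM against 0.224 and 0.425 CPM in WT. SOX2 was at 51.8 and 31.4 CPM against 11.7 and 10.9 CPM. The call of SOX2 was lost with limma-voom (adjusted p = 0.0791). With edgeR it was lost without the low-count filter (0.0881) and with the GC trend removed (0.0528). It was also lost without WT replicate 1 (log2 fold change 1.92) or WT replicate 2 (1.82). TFCP2L1, also named after its values were seen, fell to 0.357 ± 0.143, against 1.86 ± 0.0613 CPM in WT. ESRRB reached the filter on low counts only in the libraries labelled knockout, and TFCP2L1 only in WT.

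**Figure D5:**
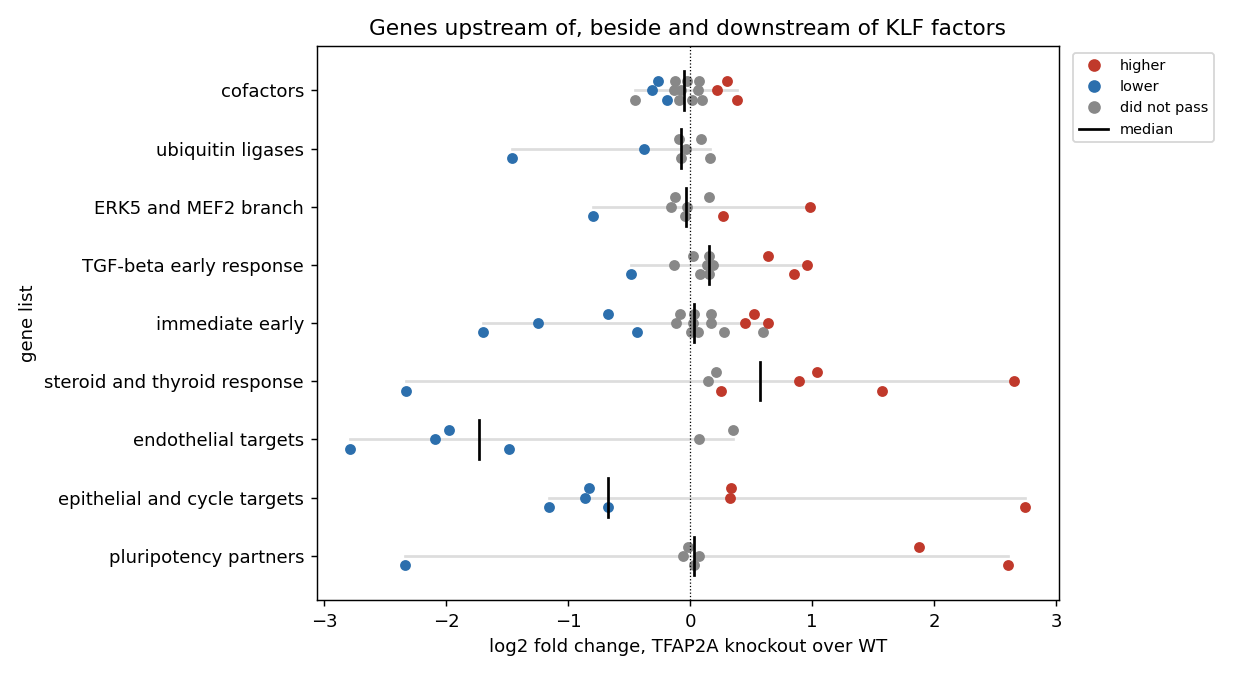
Log2 fold change, libraries labelled TFAP2A knockout over WT, of the tested genes of each list around the KLF factors, with colours for the edgeR call and a black line for the median. The medians run from -1.73 for endothelial targets to 0.57 for the steroid and thyroid genes.

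The nearest tested genes on either side of the KLF genes did not share one direction. Both neighbours of KLF6, PITRM1 and AKR1E2, were called higher (log2 fold change 0.23 and 1.44) while KLF6 fell. AZIN1, beside KLF10, was called lower (-0.43) while KLF10 rose. KLF4 lies between RAD23B, called lower (-0.24), and IKBKAP, which did not pass (0.12). GRHL1, the epithelial factor gene centred 72.2 kb from KLF11, fell to 10.3 CPM, against 56.8 CPM in WT (log2 fold change -2.47), a far larger change than that of KLF11 itself. KLF5 and its neighbour KLF12, 842 kb apart by their centres, had log2 fold changes of -0.29 and 0.14. These neighbours were looked up after the KLF values were seen.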

How the data were processed

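RNA from H9 cells at day 7 was sequenced from 4 libraries, 2 labelled TFAP2A knockout and 2 WT, grouped by the genotype label. The authors deposited estimated counts per gene in a single table. The build hg38 and the tools TopHat, HOMER and DESeq2 are named, per the submitters' processing notes, without versions, roles or counting settings. Values are multiples of 0.5 (37.0% not whole) and were rounded to whole numbers for the models. Of 23020 genes found in GENCODE v29, 4.32% begin within 2000 bp of their GRCh38 position, and the positions of the KLF genes were read as hg19.

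Genes were filtered with filterByExpr (minimum count 10), scaled with TMM and tested with edgeR 4.0.16 (glmQLFit, robust, and glmQLFTest) with genotype as the only term (R 4.3.3). A gene could pass the filter through a single genotype, as NR4A2 among the immediate early genes did through WT. Its call could then hardly go the other way. P-values were adjusted by Benjamini-Hochberg over 15643 genes. CPM uses deposited counts over TMM-scaled library sizes. The SE is the log2 fold change over the root of F, and intervals use the fit's degrees of freedom. The fit had 2 residual degrees of freedom and a common biological coefficient of variation of 0.0577. Replicates differed by more than sampling noise (chi-square per degree of freedom 4.16 in the libraries labelled knockout and 4.31 in WT). The fit was tested on simulated data. Alternatives used DESeq2 1.42.0, limma-voom (limma 3.58.1), other scaling factors, other low-count filters, rounding up, a replicate block, removal of each library's GC trend and leaving out each library.

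The members and gene lists were chosen with earlier results of these data known, so no list was tested as a set. Named genes are all KLF and SP genes, those of the TFAP2 family that check the label, and up to 3 genes of each other list with the largest change among those past the threshold with at least 5 CPM in the higher genotype and no overlap, or the 2 with the highest level. Any other gene named was picked with its values known. Some genes that meet the rule are not reported here. The table gives no gene length, so lengths and GC content came from the longest GENCODE v29 transcript (92.9% of genes tested had one). Promoters came from RefSeq. Protein sequences were not used here.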

Additional observations from a re-analysis of the deposited data

How the results depend on the processing

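KLF4, KLF6, KLF8 and KLF10 kept their direction and their call under all 14 alternatives, with log2 fold changes of -2.60 to -2.22, -0.93 to -0.89, -0.57 to -0.43 and 0.78 to 0.93. KLF3 and KLF7 passed under none. The number of KLF genes called higher was 2, and 1 with DESeq2, with a mean of at least 1 CPM required and with the replicate block. The number called lower was 5, and 3 with DESeq2, with the replicate block, with the GC trend removed, and with the GC trend removed together with the replicate block. Leaving out 1 library gave 1 higher in each case and 3 to 4 lower. KLF5 lost its call in 7 of 14 alternatives, KLF11 in 6 of 14 and KLF9 in 6 of 13, and none of these reversed. The causes were not tested. Over all genes, 3427 were higher and 3492 lower, 2386 and 2543 with DESeq2, and 3050 and 3154 with the replicate block. The replicate numbers are shared between genotypes, but deviations of libraries with the same number correlated at -0.05 and nothing in the labels pairs them, so the block is only an alternative. With it, KLF5 (adjusted p = 0.0642), KLF9 (0.0554) and KLF11 (0.0794) did not pass. The alternative with a length from the table could not be run, since it gives none, and the median protein-coding length was added after seeing the data. Depth limits KLF2 and KLF9, with at most 25.5 counts in any library.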
